A study of Mus musculus with 18 samples.

Results

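The Htra genes encode a small family of serine proteases, and all 4 mouse members, Htra1, Htra2, Htra3 and Htra4, were followed in knee cartilage after a joint injury. The members were picked by gene symbol, and their values were summed over every listed transcript of each gene, so they are 4 of the 49184 genes that the transcripts of the 18 libraries could be matched to. All 4 passed the filter on low counts and were tested.

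HtrA1, HtrA3 and HtrA4 are secreted. Each carries an insulin-like growth factor binding protein (IGFBP) type domain and a Kazal-type domain at its N-terminus, followed by the trypsin-like protease domain and a PDZ domain, which binds peptides. HtrA1 cleaves matrix proteins such as fibronectin, aggrecan and small leucine-rich proteoglycans, binds ligands of the TGF-β family, and is known in cartilage as a protease of the pericellular matrix that is raised in osteoarthritis. HtrA2, also called Omi, lacks the IGFBP-type domain and resides in the mitochondrial intermembrane space, where it takes part in protein quality control. When released into the cytosol it binds and cleaves inhibitor of apoptosis proteins.

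RNA came from femoral condyle cartilage of wild-type C57Bl/6J male mice aged 12 weeks, a genotype, sex and age shared by every group. In injured mice a single load of 12 N on the right knee ruptured the anterior cruciate ligament (ACL), and the left knee served as the contralateral control. The groups were naïve mice labelled day 7 (6 libraries), day 1 injured, day 1 contralateral, day 7 injured and day 7 contralateral knees (3 libraries each). Each library was made from pooled cartilage. The deposited description gives 4 mice for a pool, whereas the methods give 6 injured mice at day 1 and 12 at day 7, for 3 injured libraries each, so fewer mice stood behind a library at day 1. For the 6 naïve libraries, made from 6 mice, right knees and left knees went into separate pools, so these libraries share animals. Neither the mice nor the pairing of knees is named for each library. P-values therefore measure the spread between these libraries, which may share mice, and the model holds whatever tissue was dissected with the cartilage. Total estimated counts per library ranged from 16074762 to 41794005.

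The tissue label was checked first. All 11 chondrocyte markers on the list used here were above 3 counts in every library, and Col2a1, the main collagen of cartilage, held the most counts of them everywhere. Markers of other cells were present too. The summed level of 8 erythroid markers, in CPM (counts scaled to the library total and normalised with TMM), was 34497 ± 3943 (SD, n = 6) in naïve libraries, where the chondrocyte markers summed to 5145 ± 1296 and 9 skeletal muscle markers to 6216 ± 2457. In the same libraries 9 fibroblast markers summed to 14580 ± 3459, 9 neutrophil markers to 12432 ± 1975 and 9 macrophage markers to 2597 ± 301 CPM, and the bone cell and endothelial lists to 795 ± 132 and 533 ± 35.7 CPM. CPM is not scaled by transcript length, so these sums are shares of counts and not of cells.

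The day 7 contralateral library of replicate 1 stood apart from the other 17. The 10 genes with the most counts took 42.5% of its total, against 16.6% to 29.8% elsewhere, and its TMM factor was 0.696, against 0.829 to 1.16. Its chondrocyte markers summed to 13996 CPM and its erythroid markers to 64632 CPM, each the highest value of all 18 libraries. Its fibroblast markers summed to 56541 CPM, the highest value outside the day 7 injured group. Results of the members that use the day 7 contralateral group are given below with and without it.

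The members can be recognised as a family by the stretch around the catalytic serine. The 39 coding bases below, read from the GENCODE transcripts of GRCm38, are shown because they hold the catalytic serine of each member. The serine codon is in capitals. It is codon 328 of Htra1-201, 306 of Htra2-201, 311 of Htra3-201 and 332 of Htra4-201, and in each transcript the stretch crosses an exon junction.
Htra1: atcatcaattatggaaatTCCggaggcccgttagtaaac
Htra2: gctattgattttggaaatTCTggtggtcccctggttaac
Htra3: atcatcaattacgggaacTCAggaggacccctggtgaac
Htra4: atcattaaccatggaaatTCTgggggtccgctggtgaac
The serine codon differs between members except for the pair Htra2 and Htra4. Over the aligned coding sequences, 61.8% (Htra1 with Htra2) to 67.2% (Htra1 with Htra4) of bases were identical. The longest identical run between transcripts of different members was 12 to 17 bases, so the family shares no long stretch of sequence.

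Htra1 (ENSMUSG00000006205) lies on the plus strand of chr7:130936111-130985660, Htra2 (ENSMUSG00000068329) on the minus strand of chr6:83051266-83055273, Htra3 (ENSMUSG00000029096) on the minus strand of chr5:35652023-35679782, and Htra4 (ENSMUSG00000037406) on the minus strand of chr8:25024929-25038962, all in GRCm38. The annotated span of Fgfr2, on the other strand, covers the whole 49550 bases of Htra1. Htra2 overlaps Loxl3 by 1297 bases and Aup1 by 753 bases, and Htra4 overlaps the long non-coding gene Gm16933 by 1911 bases, in each case on opposite strands. These are overlaps of whole gene spans, introns included, and overlaps of exons are not given here. The library kit keeps strand, but whether the counting used it is not given in the sources used here. Whether any reads of the members are affected is therefore not known.

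The question of the study was how cartilage responds soon after ACL rupture. At day 7 the secreted proteases Htra1 and Htra3 were higher in injured cartilage than in naïve, day 7 contralateral and day 1 injured libraries. In these comparisons 16.6%, 12.6% and 15.4% of all genes were called. The rise against naïve libraries was 5.02-fold for Htra1 and 3.76-fold for Htra3, while Htra2 and Htra4 were not called in any comparison. At day 1 no member was called, and the main test (edgeR) called 0% of all genes. The difference in injury effect between the days was called for Htra1 and not for Htra3, beside 3.77% of all genes.

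Htra1, the member best known as a matrix protease in cartilage, measured 244 CPM, 254 CPM and 320.5 CPM in the 3 day 7 injured libraries. The naïve libraries ranged from 44.0 CPM to 71.0 CPM with a median of 53.2 CPM. The day 7 contralateral libraries measured 64.8 CPM, 43.6 CPM and 55.6 CPM. Every day 7 injured library was therefore far above every naïve and contralateral one, with no overlap. At day 1, injured libraries measured 67.4 CPM, 40.1 CPM and 72.1 CPM and contralateral libraries 40.4 CPM, 44.1 CPM and 37.4 CPM. Replicates 1 and 3 of the day 1 injured group exceeded all 3 contralateral libraries, and replicate 2 lay among them.

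Ordered by mean, Htra1 was highest in day 7 injured libraries (273 ± 41.5 CPM, n = 3), then day 1 injured (59.9 ± 17.3), naïve (55.1 ± 9.74, n = 6), day 7 contralateral (54.7 ± 10.6) and day 1 contralateral libraries (40.6 ± 3.37). The top group was separated from the next by far more than the spread. The 3 groups in the middle differed by less than their SDs, and the day 7 and day 1 contralateral means differed by more than either SD although their lowest and highest libraries, at 43.6 CPM and 44.1 CPM, overlapped.

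**Figure D1:**
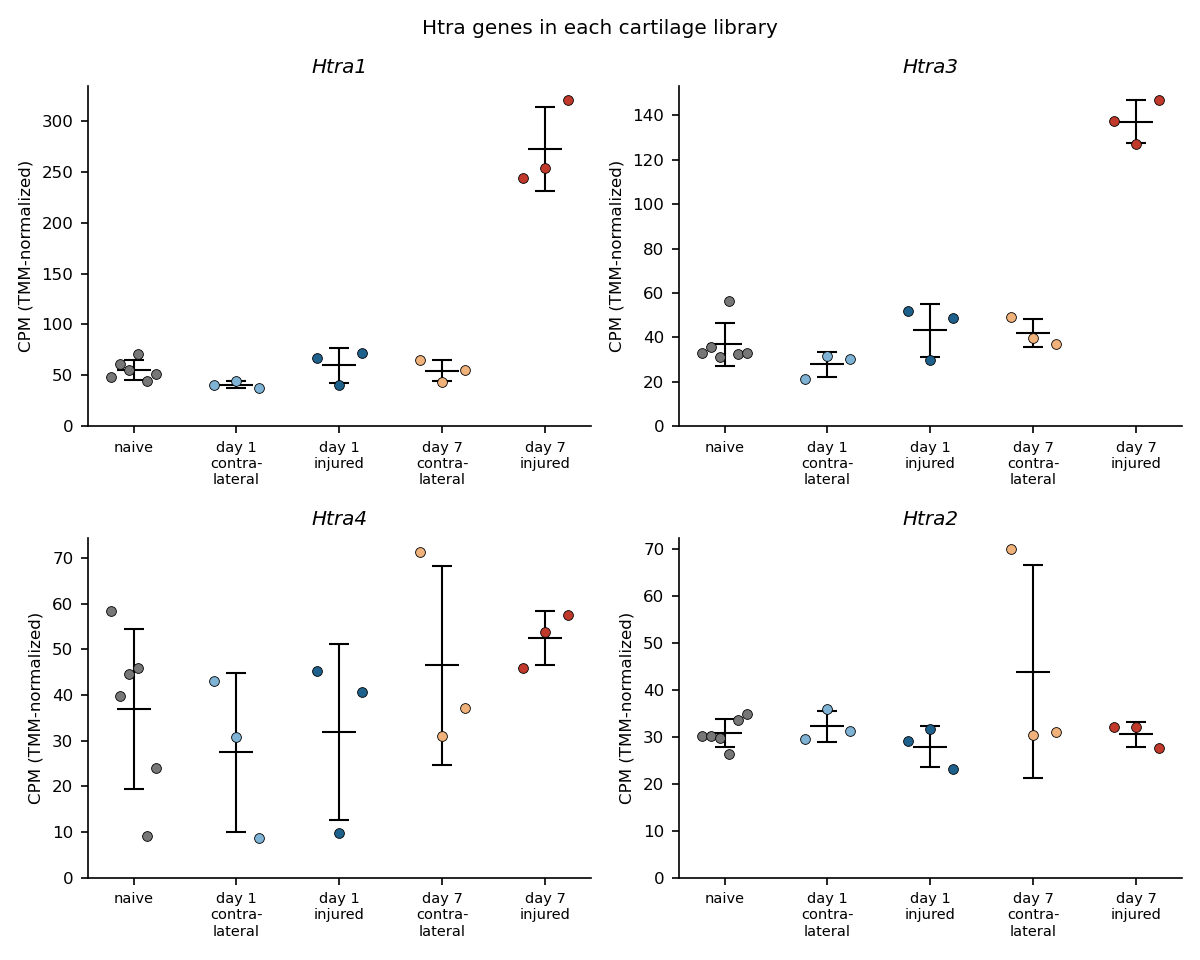
CPM (TMM-normalised, linear axis from 0) of each Htra gene in all 18 libraries by group, with points for libraries and bars for the group mean ± SD. The day 7 injured libraries of Htra1 (244 to 320.5 CPM) and Htra3 (127 to 147 CPM) lie above all others, Htra4 spreads widely within groups, and Htra2 has 1 high library at 69.9 CPM.

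With edgeR's quasi-likelihood test and Benjamini-Hochberg adjustment over all genes, Htra1 rose by a log2 fold change of 2.33 (SE 0.164, FDR 9.34e-08) between naïve and day 7 injured libraries, which ranked 173 of 21129 genes by fold change. Calls here and below needed a change of 1.5-fold or more together with an FDR no higher than 0.05, and 16.6% of all genes met both in this comparison, 10.4% higher and 6.11% lower. Genes for which every day 7 injured library exceeded every naïve one made up 17.3% of those tested.

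Against the day 7 contralateral libraries Htra1 was higher by 2.32 (SE 0.215, FDR 8.98e-07), in a comparison where 12.6% of genes were called and 9.33% were higher. Of all genes, 18.6% had no overlap in this direction. Without contralateral replicate 1 the difference was 2.48. Against day 1 injured libraries it was 2.21 (SE 0.205, FDR 3.96e-06), with 15.4% of genes called and 22.7% without overlap in this direction. These comparisons share the day 7 injured libraries and are not independent of each other.

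Htra3, another secreted member, measured 137 CPM, 127 CPM and 147 CPM in day 7 injured libraries. Naïve libraries ranged from 31.1 CPM to 56.5 CPM with a median of 32.9 CPM, and day 7 contralateral libraries measured 49.1 CPM, 39.5 CPM and 37.0 CPM. The day 7 injured libraries overlapped neither group, although naïve replicate 4, at 56.5 CPM, stood well above the other 5 naïve libraries. Of all genes, 17.3% had no overlap in this direction against naïve and 18.6% against day 7 contralateral libraries. At day 1, injured libraries measured 51.7 CPM, 29.6 CPM and 48.5 CPM and contralateral libraries 21.3 CPM, 31.8 CPM and 30.4 CPM. As for Htra1, day 1 injured replicates 1 and 3 were high and replicate 2 lay within the contralateral range.

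The order of the Htra3 group means was day 7 injured (137 ± 9.76 CPM), day 1 injured (43.3 ± 11.95), day 7 contralateral (41.9 ± 6.39), naïve (36.9 ± 9.72) and day 1 contralateral (27.8 ± 5.69). The top group alone was separated from the next by more than the SDs. Htra3 rose by 1.91 (SE 0.193, FDR 2.99e-06) against naïve, by 1.72 (SE 0.234, FDR 5.11e-05) against day 7 contralateral and by 1.68 (SE 0.237, FDR 1.45e-04) against day 1 injured libraries. Of all genes, 16.6%, 12.6% and 15.4% were called in these comparisons. Without day 7 contralateral replicate 1 the contralateral comparison gave 1.86.

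Htra4, a secreted member best known from the placenta, measured 46.0 CPM, 53.9 CPM and 57.5 CPM in day 7 injured libraries. Naïve libraries ranged from 9.19 CPM to 58.3 CPM with a median of 42.2 CPM, and day 7 contralateral libraries measured 71.4 CPM, 30.9 CPM and 37.2 CPM. Day 1 injured libraries measured 45.3 CPM, 9.73 CPM and 40.7 CPM and day 1 contralateral libraries 43.0 CPM, 30.9 CPM and 8.62 CPM. The groups overlapped, and 3 libraries, naïve replicate 5, day 1 contralateral replicate 3 and day 1 injured replicate 2, lay below 10 CPM.

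From naïve to day 7 injured libraries Htra4 changed on the log2 scale by 0.53 (SE 0.524, FDR 0.475), with an interval of 1.96 standard errors from -0.50 to 1.55. With a library left out this change ran from 0.32 to 0.70 and was never called. Against day 7 contralateral libraries the difference was 0.18, and 0.64 without contralateral replicate 1, and it was not called in either case. A rise of the size seen for Htra1 lies outside the interval against naïve libraries and a 1.5-fold rise lies within it. The means were 52.4 ± 5.87 CPM at day 7 after injury, 46.5 ± 21.8 in day 7 contralateral, 37.0 ± 17.6 in naïve, 31.9 ± 19.3 in day 1 injured and 27.5 ± 17.4 in day 1 contralateral libraries, with no neighbours separated beyond their SDs.

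Htra2, the mitochondrial member, measured 32.1 CPM, 32.1 CPM and 27.5 CPM in day 7 injured libraries and 26.4 CPM to 34.8 CPM (median 30.1 CPM) in naïve ones. Day 1 injured libraries measured 29.1 CPM, 31.5 CPM and 23.0 CPM, and day 1 contralateral libraries 29.5 CPM, 35.9 CPM and 31.1 CPM. All of these lay in a narrow band. The exception was day 7 contralateral replicate 1 at 69.9 CPM, beside 30.4 CPM and 31.0 CPM in replicates 2 and 3.

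Between naïve and day 7 injured libraries the log2 fold change of Htra2 was 0.01 (SE 0.112, FDR 0.977), with an interval from -0.21 to 0.22. Against day 7 contralateral libraries it was -0.51 (SE 0.234, FDR 0.145). That value rests on contralateral replicate 1, since it was 0.015 without it, and -0.74 (FDR 0.0388) and -0.73 (FDR 0.0420) without replicates 2 and 3, where the gene was called. The group means ran from 43.7 ± 22.7 CPM in day 7 contralateral through 32.2 ± 3.35 in day 1 contralateral, 30.8 ± 3.0 in naïve and 30.5 ± 2.65 in day 7 injured to 27.9 ± 4.37 in day 1 injured libraries, and no neighbours differed beyond their SDs.

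Day 1 was compared next, to ask whether any member moved early. Between day 1 injured and contralateral libraries Htra1 differed by 0.55 (SE 0.199, unadjusted p = 0.0137) and Htra3 by 0.63 (SE 0.234, unadjusted p = 0.0165), and neither passed adjustment in edgeR (FDR 0.755 for both). No gene was called, a background of 0%, by edgeR, DESeq2 or limma-voom, while 1383 genes had an unadjusted edgeR p below 0.05. Without day 1 injured replicate 2 the differences were 0.78 and 0.85 (FDR 0.229 for both). Against naïve libraries Htra1 differed by 0.12 and Htra3 by 0.23 at day 1, where edgeR again called 0% of genes, DESeq2 called 15 and 959 had an unadjusted p below 0.05. Without day 1 injured replicate 2 these differences were 0.35 and 0.45 (edgeR FDR 0.670 for both).

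The uninjured knees of injured mice were set against naïve mice. At day 1, Htra1 was lower by -0.44 (edgeR FDR 1.00, unadjusted p = 0.0247) and Htra3 by -0.41. None of the genes was called by edgeR (0%), 554 had an unadjusted p below 0.05 and DESeq2 called 2. At day 7, Htra1 differed by -0.012 and Htra3 by 0.18 (-0.15 and 0.047 without contralateral replicate 1), and Htra2 by 0.50 (edgeR FDR 0.274) and Htra4 by 0.32 (-0.0081 and -0.12 without it), with 0% called by edgeR, 3220 genes at an unadjusted p below 0.05 and 31 called by DESeq2. Between the contralateral knees of the 2 days, Htra1 differed by 0.43 and Htra3 by 0.59 (edgeR FDR 0.405 and 0.352), and by 0.29 and 0.45 without day 7 replicate 1, in a comparison with 4 genes called (0.0188%). Htra2 differed by 0.43 and Htra4 by 0.76 (edgeR FDR 0.432 and 0.586), and by -0.075 and 0.31 without that replicate.

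Whether the injury effect changed with time was tested as the difference between injured and contralateral knees at day 7 minus that at day 1. For Htra1 it was 1.76 (SE 0.293, edgeR FDR 0.00176), with 3.77% of all genes called, and 1.93 without day 7 contralateral replicate 1. For Htra3 it was 1.08 (SE 0.324, FDR 0.0755) and was not called, although it was called at 1.23 (FDR 0.0481) without day 7 contralateral replicate 1. For Htra2 it was -0.30 and for Htra4 -0.037, with FDRs of 0.699 and 0.990. Neither sign held without day 7 contralateral replicate 1, at 0.22 and 0.43.

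**Figure D2:**
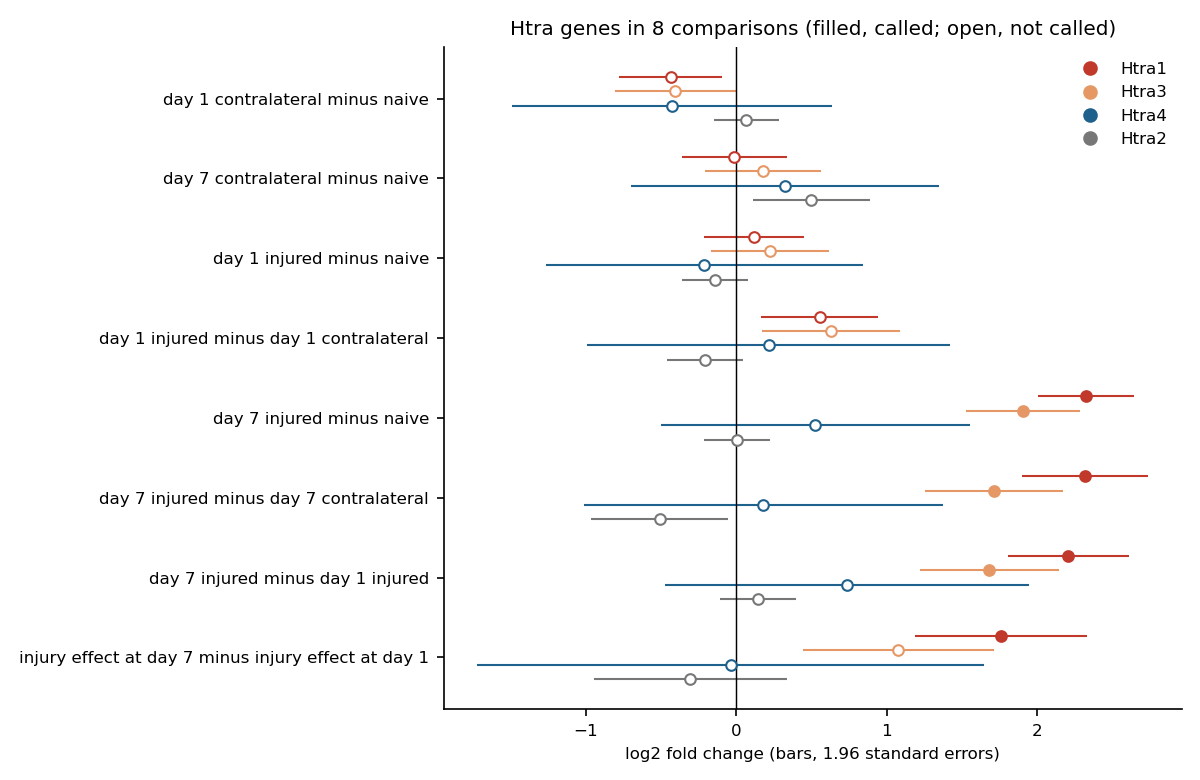
Log2 fold change of each Htra gene in 8 comparisons on the x axis, with bars of 1.96 standard errors, filled points for called genes and open points for others. Htra1 is called in all 4 comparisons that contain the day 7 injured group (1.76 to 2.33), Htra3 in 3 of them, and Htra4 has the widest bars.

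The levels of the 4 Htra genes were compared with each other per transcript length, in TPM, which scales counts by transcript length and library total. Each level sums all transcripts of a gene, also those with no coding sequence. In naïve libraries Htra1 was the most abundant member at 16.3 ± 2.32 TPM, followed by Htra2 at 12.4 ± 2.33, Htra4 at 9.41 ± 4.70 and Htra3 at 8.18 ± 1.98 TPM. The coding transcript Htra2-201 alone ranged from 5.55 to 8.06 TPM there, and Htra4-201 from 2.50 to 15.5 TPM. The place of Htra2 above Htra4 by mean therefore rests on its other transcripts. The level of Htra1 was higher than that of 89.7% of protein-coding genes. In day 7 injured libraries Htra1 reached 66.6 ± 20.3 TPM, Htra3 23.7 ± 3.88, Htra4 10.95 ± 2.50 and Htra2 9.61 ± 1.14 TPM. By group mean Htra3 was last in naïve and second in day 7 injured libraries, but the naïve means of Htra3 and Htra4 differed by less than their SDs.

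Together the 4 genes summed to 46.3 ± 6.91 TPM in naïve and 110.9 ± 27.3 TPM in day 7 injured libraries. Of that sum, Htra1 held 35.4% ± 2.74 in naïve and 59.5% ± 3.46 in day 7 injured libraries, where the separate values were 56.3%, 59.1% and 63.2%. The share of Htra2 was 27.2% ± 6.72 in naïve and 8.88% ± 1.45 in day 7 injured libraries. Shares of a sum move against each other, and the CPM of Htra2 was 30.8 ± 3.0 and 30.5 ± 2.65 in the same groups. TPM is scaled to each library's total and not by TMM, and in day 7 contralateral replicate 1 it placed Htra1 at 6.81 TPM, the lowest of all libraries, although its CPM was 64.8.

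**Figure D3:**
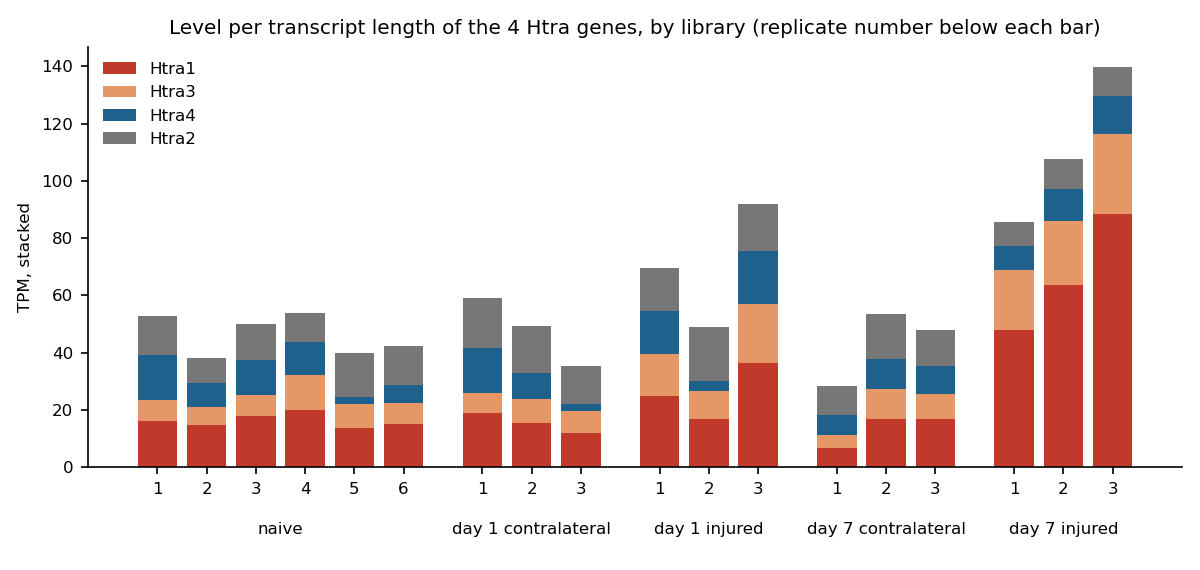
Stacked TPM of the 4 Htra genes in each library (linear axis from 0), grouped by condition with the replicate number under each bar. The day 7 injured bars are the tallest except that replicate 1 stays below day 1 injured replicate 3, and Htra1 makes up 56.3% to 63.2% of each.

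The annotation lists 24 transcripts for the 4 genes, and 8 held at least 5% of their gene's estimated counts. Htra1-201 is the only protein-coding transcript of Htra1. Htra1-205, annotated as a processed transcript with no coding sequence, begins with a first part of its own and then shares its other 1503 bases with Htra1-201, whose first 538 bases it lacks. The bases around the point where both meet are printed because the split of reads between them rests on these starts. The shared part is in capitals.
Htra1-201: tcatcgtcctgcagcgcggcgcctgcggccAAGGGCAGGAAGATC
Htra1-205: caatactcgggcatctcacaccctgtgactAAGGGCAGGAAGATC
Htra1-201 held 73.9% ± 9.73 of the gene's estimated counts in naïve and 72.7% ± 14.9 in day 7 injured libraries, and Htra1-205 held 23.4% ± 9.09 and 25.5% ± 14.4. In the day 7 injured libraries the share of Htra1-205 was 8.90%, 34.8% and 32.6%, so replicate 1 differed from the others. It was listed at 0 in day 7 contralateral replicate 1.

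Htra3 has a long and a short form. Htra3-201 codes for 459 residues and Htra3-202 for 363. Both share 1069 coding bases, after which the long form continues for 308 coding bases that hold its PDZ domain and the short form for 20. The bases at which they part are shown with the shared end in capitals.
Htra3-201: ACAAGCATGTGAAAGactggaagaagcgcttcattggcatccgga
Htra3-202: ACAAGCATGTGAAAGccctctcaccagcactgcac
The long form held 86.2% of Htra3 counts in naïve and 88.7% in day 7 injured libraries, and the short form 11.8% and 10.4%. In CPM, the long form measured 32.0 ± 9.61 in naïve and 122 ± 9.95 in day 7 injured libraries, and the short form 4.19 ± 0.838 and 14.2 ± 2.44.

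For both forms every day 7 injured library exceeded every naïve one. The lowest injured against the highest naïve value was 113 against 51.3 CPM for the long form and 12.7 against 5.23 CPM for the short one. By gene, 17.3% of those tested had no overlap in this direction, and the share over all transcripts was not computed. Against day 7 contralateral libraries the short form did overlap. Contralateral replicate 1 measured 13.4 CPM, above the lowest and the median (12.9 CPM) injured values. The long form did not overlap, with 36.0 CPM as its highest contralateral value. Of the 8 transcripts, none changed its share at an adjusted p below 0.05 in an exact two-sided permutation test of day 7 injured against naïve libraries (3 against 6), in which the smallest possible p was 0.0238. A single transcript at that limit would have an adjusted p of 0.190, so this test could not call 1 transcript alone and says nothing about stability of the shares. The lowest p was 0.0476 (adjusted p = 0.381, exact test) for Htra2-209, a retained-intron transcript that held 9.77% in naïve and 6.16% in day 7 injured libraries. Htra4-201 held 99.5% of Htra4 in naïve libraries.

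**Figure D4:**
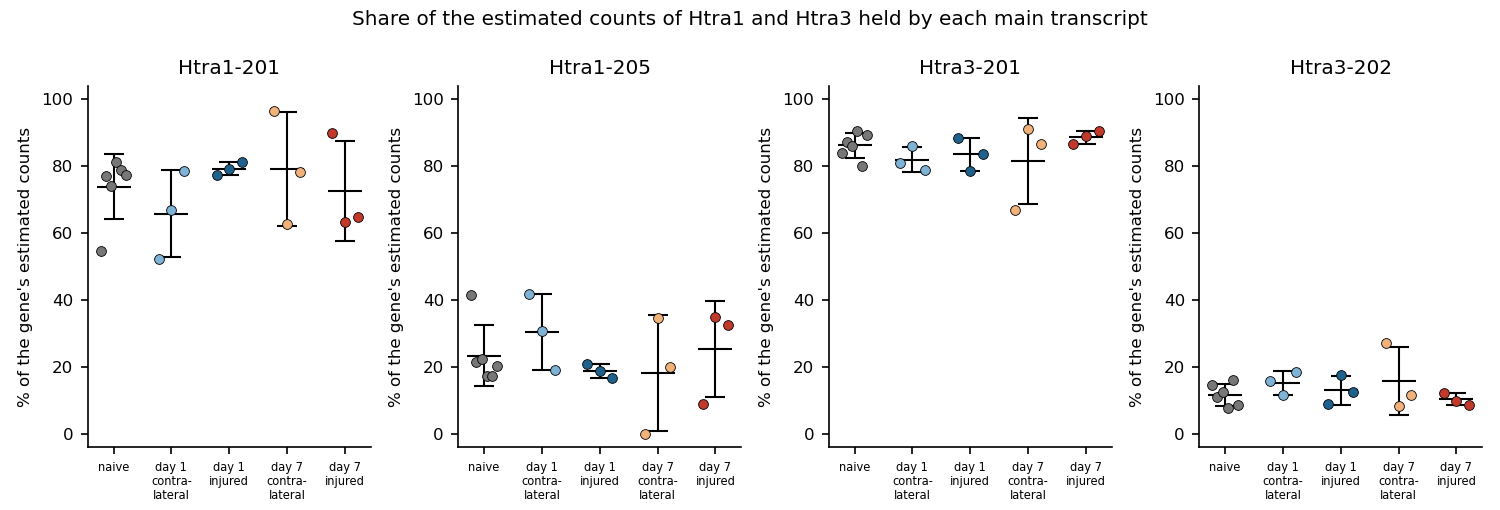
Percent of a gene's estimated counts held by the main transcripts of Htra1 and Htra3 in each library by group, with the group mean ± SD. Htra1-205 ranges from 0% to 41.7% over the libraries, while Htra3-202 lies below 20% in all but day 7 contralateral replicate 1 (27.3%).

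Since Htra1 and Htra3 were higher in the same libraries, the 250 bases before their RefSeq start sites (GRCm38.p6) were compared. The table used holds these 2 members. The Htra1 stretch, on the plus strand of chr7:130935953-130936202, held 22 CpG dinucleotides, more than 85.2% of 32851 promoters. The Htra3 stretch, on the minus strand of chr5:35679781-35680030, held 3, against a median of 6 over all promoters. A GC box (GGGCGG on either strand) is in capitals where found.
Htra1: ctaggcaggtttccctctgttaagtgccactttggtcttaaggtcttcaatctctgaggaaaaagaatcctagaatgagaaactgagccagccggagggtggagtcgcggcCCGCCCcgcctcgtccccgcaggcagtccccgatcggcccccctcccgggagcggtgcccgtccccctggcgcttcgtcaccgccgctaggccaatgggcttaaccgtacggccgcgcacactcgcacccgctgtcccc
Htra3: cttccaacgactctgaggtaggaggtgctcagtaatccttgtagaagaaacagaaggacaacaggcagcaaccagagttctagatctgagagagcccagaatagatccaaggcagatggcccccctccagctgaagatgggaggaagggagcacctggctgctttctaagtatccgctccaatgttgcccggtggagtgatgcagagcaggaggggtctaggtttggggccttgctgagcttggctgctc
The Htra1 stretch held 1 GC box, which 32.7% of promoters hold at least once, and the Htra3 stretch none. Neither held TATAAA (in 12.4% of promoters), the AP-1 letters TGAGTCA (4.46%) or CAGACA (17.1%), each searched on both strands. Bases other than these letters were not searched.

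Genes whose pattern was most like each member were named by Pearson's r of log2(CPM + 1) over the 18 libraries, among 15988 genes, as a description. For Htra1 they were Col15a1, a basement membrane collagen (r = 0.993), Loxl2, a collagen cross-linking enzyme (0.989), the gelatinase Mmp2 (0.988) and the carboxypeptidase-like Cpxm2 (0.988). For Htra3 they were Zfp185 (0.976), Loxl2 (0.974), Cd248 (0.973), a marker of stromal cells, and Htra1 itself (0.970). The day 7 injured libraries carry much of these values, and r between Htra1 and Htra3 was 0.826 over the other 15 libraries.

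Outside the injured day 7 group the likeness of Htra1 can be seen in single libraries. Col15a1 was 94.3 CPM in naïve replicate 4, where Htra1 and Htra3 also had their highest naïve values, and 54.0 to 73.2 CPM in the other naïve libraries. For Htra4 the most alike were Nrep (0.943), Clec3b (0.932), Chst5 (0.916) and Pcsk6 (0.913), a proprotein convertase. In the 3 libraries with Htra4 below 10 CPM, Clec3b was 2.71, 2.55 and 2.77 CPM, against 13.4 to 41.0 CPM in the other 15. Clec3b is on the fibroblast list. The summed list, mostly Col1a1, was 11341, 10211 and 12732 CPM in these libraries. The first lay within the naïve range of 10607 to 18323 CPM, the second was the highest of its group and the third the lowest.

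Skeletal muscle markers summed to 2825, 4124 and 3149 CPM in those same 3 libraries, the lowest sum within each of their groups, with Myh4 holding the most counts. The lowest muscle sum of all 18 libraries was 2159 CPM in day 7 injured replicate 2, where Htra4 was 53.9 CPM. Whether a difference in dissected tissue plays a part in the spread of Htra4 was not tested. For Htra2, the genes most alike were Xab2, Mis18a, Npm3 and Zkscan14 (r = 0.949 to 0.963), and none of the 4 remained among the first 4 without day 7 contralateral replicate 1. By the same check 2 of the 4 remained for Htra1, 2 for Htra3 and 1 for Htra4.

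The surroundings in which HtrA proteins act were described with gene lists. Of 15 matrix proteins cleaved by HtrA1 or its relatives, 11 were higher in day 7 injured than in naïve libraries, none was lower, and the median log2 fold change was 1.33. Over all genes 10.4% were higher and the median was -0.039. The 3 largest changes were in the small leucine-rich proteoglycans Bgn (2.30, FDR 6.83e-08) and Fmod (1.99, FDR 6.14e-06) and in fibronectin, Fn1 (1.63, FDR 5.33e-05). Fn1 measured 2788 ± 656 CPM in naïve and 8540 ± 2145 CPM in day 7 injured libraries. At the other end Clu (-0.34), Efemp1 (-0.046) and Matn3 (0.30) were not called by edgeR.

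Of 7 ligands of the TGF-β family that bind HtrA1, HtrA3 or HtrA4, 4 were higher and none was lower, with a median of 1.35. Gdf5, a growth factor of joint development, rose most, by 3.81 (SE 0.321) from a low level of 0.411 ± 0.172 CPM to 5.80 ± 1.62 CPM. Tgfb3 rose by 1.86, Inhba by 1.54 and Tgfb2 by 1.35. Bmp4 (0.51), Bmp2 (0.18) and Tgfb1 (-0.066) were not called.

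The list of pericellular matrix, DDR2 and TGF-β receptor genes follows a chain in which HtrA1 is known to degrade the matrix around the chondrocyte and expose collagen to the receptor DDR2. Of its 12 genes 8 were higher and none was lower (median 0.76). The type VI collagen genes of the pericellular matrix changed most, Col6a2 by 3.08, Col6a1 by 3.04 and Col6a3 by 2.66, whereas Col2a1 (0.25), Ddr1 (0.33) and Smad2 (0.34) were not called. Smad2 passed the adjusted test (edgeR FDR 0.00692) but stayed under 1.5-fold. Ddr2 (0.69, edgeR FDR 5.83e-05) and the collagenase Mmp13 (0.88, edgeR FDR 0.00774) were higher too, and are named here after their values were seen.

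Other genes with an IGFBP-type N-terminal domain, the domain that the secreted HtrA proteins carry, were also listed. Of 17 genes 15 were tested, 9 were higher and none was lower (median 1.27). The largest changes were in Ccn3 (2.36) and in the IGF carriers Igfbp3 (2.26) and Igfbp7 (1.88), and Esm1 (-0.017), Ccn6 (0.13) and Crim1 (0.26) were not called.

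Around mitochondrial Htra2, 1 listed gene was called. Of 15 apoptosis partners none was called in either direction by edgeR between naïve and day 7 injured libraries, and the median was -0.0063, beside 10.4% of all genes higher and 6.11% lower. Among the extremes were Hax1 (0.25) and Sept4 (0.18) at the top and cytochrome c, Cycs (-0.20), Birc2 (-0.19) and Pink1 (-0.16) at the bottom. Of 13 other mitochondrial proteases 1 was called, the inner membrane peptidase subunit Immp2l, which fell by 0.79 on the log2 scale from 1.43 ± 0.246 to 0.81 ± 0.123 CPM. A count of 1 in 13 is near the background of lower genes. Yme1l1 (0.28, edgeR FDR 0.00968 but under 1.5-fold), Lactb (0.15) and Immp1l (0.15) stood at the top, and Afg3l2 (-0.12) and Lonp1 (0.0079) near the bottom.

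**Figure D5:**
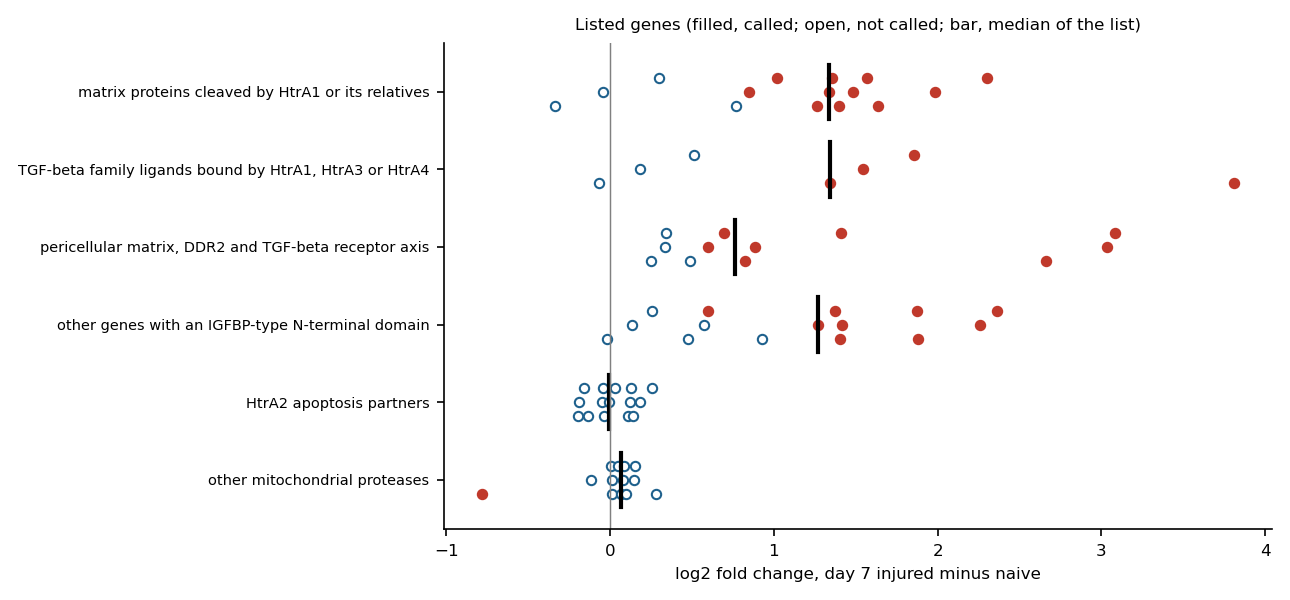
Log2 fold change (x axis, day 7 injured minus naïve) for the genes of 6 lists, with filled points for called genes, open points for others and a bar at the list's median. The 4 lists linked to the secreted proteases have medians of 0.76 to 1.35 and the 2 mitochondrial lists have medians near 0.

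At day 1 none of the genes on these 6 lists was called by edgeR against naïve or contralateral libraries, where 0% of all genes were called. Against day 7 contralateral libraries the counts of higher genes at day 7 were 11 of 15 matrix proteins, 4 of 7 ligands, 6 of 12 pericellular genes and 9 of 15 IGFBP-domain genes, with 0 called on the 2 mitochondrial lists, beside 9.33% of all genes higher. Without contralateral replicate 1 they were 11, 3, 6 and 9, and again 0, beside 9.31% of all genes. Tests of the difference in injury effect between days called 7 of 15, 3 of 7, 5 of 12 and 2 of 15 genes on the first 4 lists and 0 on the 2 mitochondrial lists, beside 3.77% of all genes.

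Markers of other cells moved in the same libraries as Htra1 and Htra3. In bulk RNA more cells of a type and more RNA per cell cannot be told apart. Of 9 fibroblast markers 6 were higher at day 7 after injury than in naïve libraries (Col1a1, Col3a1, Dpt, Thy1, Pdgfra and Cdh11), beside 10.4% of all genes. The other 3, Pdpn, Pi16 and Clec3b, were not called. None of the 9 was at or under 3 counts in any library. Their summed level was 73869, 69571 and 79952 CPM in the day 7 injured libraries and 10607 to 18323 CPM (median 14533) in naïve ones, mostly Col1a1. The part of such cells in the higher Htra1 and Htra3 was not tested.

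Day 7 contralateral replicate 1 had a fibroblast sum of 56541 CPM, of which Col1a1 made up 52440 CPM, with Htra1 at 64.8 CPM and Htra3 at 49.1 CPM. The sums in contralateral replicates 2 and 3 were 17016 and 23363 CPM. Of 11 chondrocyte markers 3 were higher in day 7 injured than in naïve libraries, beside 10.4% of all genes, and none was lower. The 3 were Acan (1.57), Comp (1.39) and Sox9 (1.36). Acan and Comp are also on the list of cleaved matrix proteins.

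Of 8 endothelial markers 3 were higher, and of 9 macrophage markers none was called. Erythroid markers went the other way, with 4 of 8 lower against naïve and 5 lower against day 7 contralateral libraries (3.23% of all genes lower), none of which was called without contralateral replicate 1 (1.99%). For comparison, 10.4% of all genes were higher and 6.11% lower against naïve libraries, so a count of 1 in 9 is near that background. Of 9 neutrophil markers 2 were lower, of 9 muscle markers 1 (Myh2), and of 9 bone cell markers 1 was higher (Ibsp) and 1 lower (Sost).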

How the data were processed

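Total RNA depleted of ribosomal RNA was sequenced in 18 cartilage libraries. After trimming, the authors assigned reads to mouse transcripts of GRCm38 by Kallisto pseudo-alignment and deposited estimated counts per transcript, not normalised further. They also deposited TPM values, which scale those counts by transcript length and library total. The labels also name GRCh38 as a build, but the transcript identifiers are of mouse.

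Of 137436 transcripts, 135107 (98.3%) were matched without version to the GENCODE annotation of GRCm38, and the others, with 0.667% to 3.90% of the counts, were left out. Estimated counts were summed per gene and rounded. Genes were tested with edgeR 4.0.16 (R 4.3.3), with TMM factors, its filter on low counts, the quasi-likelihood test and a mean per group. Comparisons without day 7 contralateral libraries used the other 15 libraries (21129 genes) and those with them all 18 (21262 genes). CPM values were normalised over 18 libraries. The authors dropped a library of the ACL rupture experiment with a low mapping rate, which the sources used here do not name, so it may be among the 18, and each was left out in turn. Calls needed a change of 1.5-fold or more and an FDR no higher than 0.05. Alternatives were DESeq2 1.42.0, limma-voom (limma 3.58.1), DESeq2 size factors, no filter, a transcript length offset, shares of TPM for the transcripts, other sets of libraries and leaving out each library. The fit was tested on simulated data. Count totals set the precision, and SDs are between libraries.

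The members and gene lists were chosen with earlier results of these data known. Genes named were the members, the 4 genes most alike each, and the 3 highest and 3 lowest of each list of the day 7 injured against naïve comparison (all where under 8 were tested). A gene that this rule names is not reported here. Of the markers, some that were called and those with the most counts are named.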

Additional observations from a re-analysis of the deposited data

Results flagged for a closer look

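In tests for a single library far from the rest of its group (16 groups of 6 naïve libraries, of which chance alone would mark about 1 in 20), naïve replicate 4 stood out for Htra3, at 56.5 CPM against 31.1 to 35.7 CPM in the other naïve libraries and at 12.0 TPM against 6.44 to 8.37 TPM. Naïve replicate 1 stood out for the split of Htra1 between transcripts, with 54.6% in Htra1-201 (74.2% to 81.4% in the others) and 41.4% in Htra1-205 (17.2% to 22.4%). Naïve replicate 3 had a low share of the retained-intron transcript Htra2-209, at 6.46% against 9.85% to 11.5%.

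The injury effect on Htra1 differed between the time points by 1.76 on the log2 scale (edgeR FDR 0.00176), since it was 0.55 at day 1 and 2.32 at day 7. Each of the 3 day 7 injured libraries exceeded all 3 day 7 contralateral ones, as was the case for 18.6% of all genes.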

How the results depend on the processing

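The calls of Htra1 and Htra3 against naïve, day 7 contralateral and day 1 injured libraries, and of Htra1 for the difference in injury effect, held in every alternative tried, including each library left out. For Htra1 against naïve the log2 fold change ran from 2.20 to 2.41 with a library left out and from 2.31 to 2.34 in the other 6 alternatives, and for Htra3 from 1.86 to 2.07 and from 1.86 to 1.94. The difference in injury effect of Htra3 (1.08, not called) was called by DESeq2 at 1.06 (FDR 0.0355), and ran from 0.87 to 1.24 with a library left out, being called without day 1 contralateral replicate 1, naïve replicate 4 or day 7 contralateral replicate 1. The cause was not tested.

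Values near 0 changed sign without being called. Htra2 at day 7 against naïve was -0.0054 with DESeq2 size factors, -0.0059 with DESeq2, -0.0066 without a filter, -0.012 with the length offset and -0.012 with 18 libraries. Htra1 in day 7 contralateral against naïve was 0.0056 with DESeq2 size factors and 0.0062 with DESeq2. Htra4 for the difference in injury effect was 0.049 with limma-voom.

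With a library left out, the ranges were -0.035 to 0.079 for Htra2 at day 7 against naïve, -0.74 to 0.015 for Htra2 and -0.063 to 0.64 for Htra4 against day 7 contralateral, and -0.031 to 0.35 for Htra1 and -0.54 to 0.23 for Htra4 at day 1 against naïve. They were -0.22 to 0.70 for Htra4 at day 1 against contralateral, -0.016 to 0.13 for Htra2 and -0.90 to 0.0025 for Htra4 in day 1 contralateral against naïve. In day 7 contralateral against naïve they were -0.15 to 0.14 for Htra1, -0.0081 to 0.73 for Htra2 and -0.12 to 0.57 for Htra4, and against day 1 contralateral -0.075 to 0.66 for Htra2. For the difference in injury effect they were -0.53 to 0.22 for Htra2 and -0.52 to 0.43 for Htra4. Shares changed by -9.82 to 3.37 points for Htra1-201, -2.62 to 10.3 for Htra1-205, -1.91 to 0.282 for Htra2-207 and -0.156 to 0.360 for Htra4-201. As shares of TPM in place of counts, Htra3-201 changed by 5.81 points where it had changed by 2.50, and Htra2-209 by -1.90 where it had changed by -3.61 (adjusted p = 0.190 for both, exact permutation test).

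DESeq2 called 80 genes between contralateral days where edgeR called 4, limma-voom, the length offset and the compared groups alone 0, no filter 1, and leaving out a library 0 to 7. Genes called for the difference in injury effect, 802, fell to 402 without day 7 injured replicate 3, 465 without day 1 contralateral replicate 3 and 496 without day 1 injured replicate 1. No paired analysis was possible because the labels do not name the mice behind each library. The paper's own fit took account of samples from the same mouse pool, and the fits here, limma-voom included, did not.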
